A study of Rattus norvegicus with 6 samples.

Results

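The renin-angiotensin system genes were followed in 6 samples of rat kidney, as 8 genes chosen by name: Agt, Ace, Agtr1a, Agtr1b, Agtr2, Mas1, Enpep and Mme. Every non-control probe whose RefSeq accession belongs to one of these genes was taken, which gave 9 probes out of 30367, with 2 probes for Ace and 1 for each of the others. They are 8 of the 15168 genes that could be named on the array. These genes do not make up the whole system. The selection rule holds no measured value, but the list was drawn up with earlier results of these data known.

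Total RNA came from kidney tissue of rats 21 weeks old and was hybridised to Agilent one-colour arrays. There were 3 arrays from rats labelled diabetic and 3 from rats labelled as treated with Bailing Capsule, a fermented Cordyceps preparation. The labels give no strain, sex, dose or way of making the rats diabetic, and do not say whether the treated rats were diabetic too. All differences below are Bailing Capsule minus diabetic, on a log2 scale, with each array set to its own 75th percentile, so that 1 unit is a doubling. The labels call the samples replicates and say no more about how they were collected, so the p-values rest on a spread that may be technical.

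Angiotensinogen, the protein of Agt, is the only known source of the angiotensin peptides. Renin cuts it to angiotensin I, and the angiotensin-converting enzyme encoded by Ace turns that into angiotensin II, which constricts vessels and retains salt through the AT1 receptor. Rodents carry a pair of AT1 receptor genes, Agtr1a and Agtr1b, where humans have 1. In kidney, AT1 receptors sit on vessels, mesangial cells and tubules. The AT2 receptor of Agtr2 and the Mas receptor of Mas1 are known mostly for opposing effects, the latter as a receptor for angiotensin-(1-7). Aminopeptidase A, the product of Enpep, trims angiotensin II, and neprilysin, the product of Mme, cuts angiotensin I and many other peptides. Both are abundant on the brush border of the proximal tubule.

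None of the 6 genes that could be tested passed the test. Of the 8, 6 were well above background and could be tested, and 2, Agtr2 and Mas1, were not well above background on any of the 6 arrays. limma called 0 of the 6 at a Benjamini-Hochberg adjusted p under 0.05, where 0.319% of all 17892 tested features were called. At an unadjusted p under 0.05 there were also 0 of 6, against 7.55% of all features. The lowest values were those of the peptidase genes Mme (-0.50) and Enpep (-0.43). Agtr1a had 0.23, Ace 0.01, Agtr1b -0.16 and Agt -0.18. The median over the 6 was -0.17, beside -0.09 over all features, of which 62.1% were negative. The plot of the members on each array shows how far single arrays differed.

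**Figure D1:**
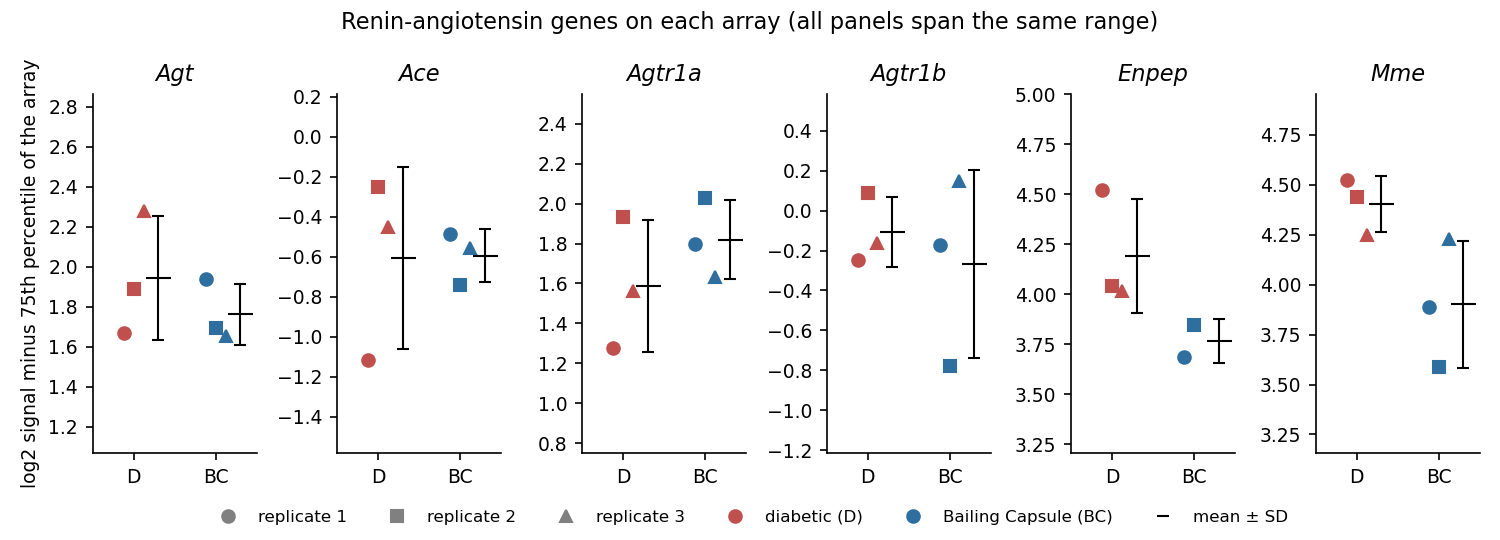
Level of each of the 6 tested genes on each array (log2 signal minus the array's 75th percentile); red symbols are diabetic and blue symbols Bailing Capsule kidneys, symbol shape gives the replicate, and bars show mean ± SD. Only for Enpep and Mme do the 2 groups not overlap, and the gap is 0.17 and 0.021 log2 units. Enpep has 2 Bailing Capsule values. Among all features 11.6% did not overlap.

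Agt encodes the substrate of the system and is made in liver and, in kidney, mostly in the proximal tubule. Its level was 1.67, 1.89 and 2.28 in diabetic replicates 1, 2 and 3, and 1.94, 1.70 and 1.65 in Bailing Capsule replicates 1, 2 and 3. The groups overlapped, with diabetic replicate 3 highest and Bailing Capsule replicate 3 lowest. The group means were 1.95 ± 0.31 and 1.76 ± 0.15 (SD, n = 3 each), and the difference was -0.18 (SE 0.26, 95% interval -0.76 to 0.40; limma, adjusted p = 0.972). As a fold, the interval runs from 0.589 to 1.32 times the diabetic level. With slide, inferred from scan time, as a block the sign turned, to 0.10, and without diabetic replicate 3 the value was -0.017. Since these are bulk samples, fewer cells of a type and less RNA per cell cannot be told apart, here and for every gene below.

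Liver markers lay further below 0 than Agt did. All 8 tested of 11 listed liver genes had negative values, with a median of -1.10. The lowest were Fgb, a fibrinogen chain gene, at -1.74, and the albumin gene Alb at -1.37. None of the 8 was called, and 6 had an unadjusted p under 0.05 in limma, against 7.55% of all features. One of these 6, the hemopexin gene Hpx, was not well above background on 1 of its 3 treated arrays. The array medians of the list did not overlap, at -0.42, 0.30 and 0.26 in diabetic and -1.07, -1.03 and -1.35 in Bailing Capsule kidneys. Their summed level (log2 of the sum), which is carried by the transferrin gene Tf, overlapped, at 4.43 to 5.68 in diabetic and 4.06 to 5.33 in Bailing Capsule kidneys. The defining markers Apoa1, Ahsg and Cps1 were below the filter. The part of liver-type transcripts in the value of Agt was not tested.

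Ace encodes the converting enzyme, which is known from endothelium and the brush border. The probe that passed the filter read -1.12, -0.25 and -0.45 in diabetic kidneys, and -0.49, -0.74 and -0.56 in Bailing Capsule kidneys. The 3 treated values lie inside the diabetic range, in which diabetic replicate 1 was lowest. The means were -0.61 ± 0.45 and -0.60 ± 0.13 (SD, n = 3 each), a difference of 0.01 (SE 0.29, 95% interval -0.63 to 0.65; limma, adjusted p = 0.9997). The value rests on single arrays: without diabetic replicate 1 it was -0.25, and without diabetic replicate 2 it was 0.19. The blocked value, set by the 1 diabetic array of slide 1, was 0.52.

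The other Ace probe was dim. Its signal was 3.01, 1.37 and 6.45 intensity units in diabetic kidneys, and it was not well above background on any of them. In Bailing Capsule kidneys it was 1.86, 10.6 and 4.90, well above background on replicates 2 and 3. This probe did not pass the filter, and no fold is given for it.

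The AT1 receptor genes are closely similar in coding sequence. Probe sequences were not used here, so cross-hybridisation between the pair was not checked and both values are uncertain in that respect. Their promoters hold different motifs and are shown because they tell the genes apart. Each line gives the 250 bases before the RefSeq start site on assembly GRCr8, 5′ to 3′ on the strand of the gene. The location is chr17:34435433-34435682, minus strand, for Agtr1a and chr2:104849263-104849512, minus strand, for Agtr1b. Capitals mark exact matches on either strand to 3 motifs. The TATA box was searched as TATAAA. The GC box was searched as GGGCGG, which can overlap with itself. The third motif was the CCAAT box, by its name.
Agtr1a: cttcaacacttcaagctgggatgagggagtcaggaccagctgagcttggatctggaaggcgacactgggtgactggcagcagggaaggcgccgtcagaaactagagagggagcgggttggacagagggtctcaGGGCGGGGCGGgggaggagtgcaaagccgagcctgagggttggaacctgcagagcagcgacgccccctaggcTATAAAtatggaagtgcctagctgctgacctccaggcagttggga
Agtr1b: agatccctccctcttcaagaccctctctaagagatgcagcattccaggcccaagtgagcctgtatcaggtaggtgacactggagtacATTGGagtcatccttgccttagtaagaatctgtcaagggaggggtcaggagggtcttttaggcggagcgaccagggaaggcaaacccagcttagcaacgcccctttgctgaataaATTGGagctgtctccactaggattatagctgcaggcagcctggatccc
The Agtr1a window held a TATA box at -45 to -40 from the start and a pair of overlapping GC boxes, and its GC content was 60.8%. The Agtr1b window held neither, but a CCAAT box on the opposite strand at -163 to -159 and -48 to -44, with a GC content of 52.8%. Among the 33469 promoter windows of the same length, 12.9% held a TATA box, 30.5% a GC box and 34.0% a CCAAT box, and their median GC content was 51.2%. A match describes letters and not a bound site.

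Agtr1a is the main AT1 receptor gene of rat kidney. It was printed as 10 spots per array and is the only member with repeated spots. Its level was 1.27, 1.93 and 1.56 in diabetic replicates 1, 2 and 3 and 1.80, 2.03 and 1.63 in Bailing Capsule replicates 1, 2 and 3. The groups overlapped, and diabetic replicate 1 was lowest. Means were 1.59 ± 0.33 and 1.82 ± 0.20 (SD, n = 3 each), and the difference was 0.23 (SE 0.27, 95% interval -0.37 to 0.83; limma, adjusted p = 0.968). The sign was positive under all 21 alternatives run, from 0.073 without diabetic replicate 1 to 0.54 with slide as a block, and none was called. Several of these, among them the filters, the probe choice and the replicate block, left its value unchanged, so the sign could not turn there. In the authors' deposited table the groups did not overlap, by 0.012, with a difference of 0.35.

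The repeated spots differed far less than the arrays did. After flagged spots were left out, 9 or 10 remained per array. Their coefficient of variation was 2.67% to 3.64%, an SD of 0.038 to 0.053 on the log2 scale. The SD between the arrays of a group, pooled over both groups, was 0.27. The plot of the Agtr1a spots shows 6 narrow bands, with both ends of the range far apart.

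**Figure D2:**
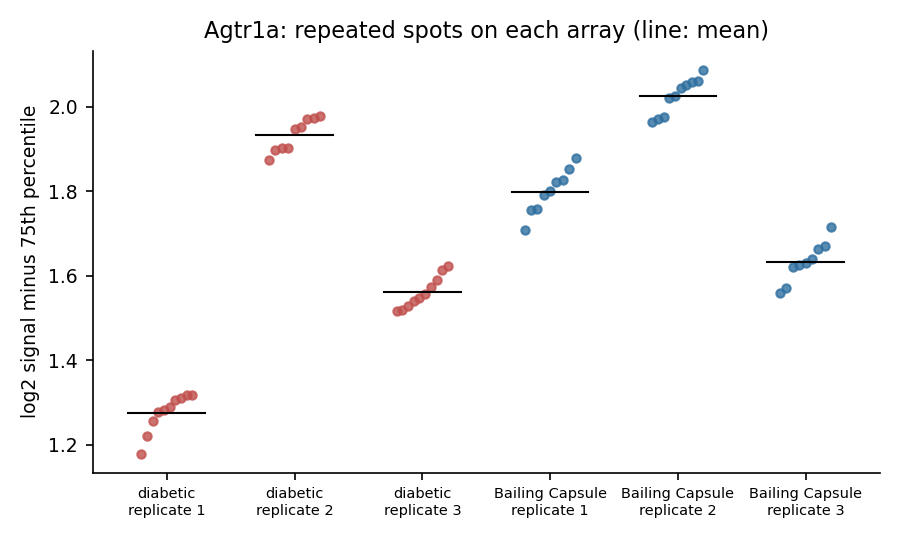
Each point is 1 unflagged spot of the Agtr1a probe, as log2 signal minus the 75th percentile of its array, and lines give the array means. Spots of an array lie close together, with an SD of at most 0.053, while the means run from 1.27 in diabetic replicate 1 to 2.03 in Bailing Capsule replicate 2.

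Agtr1b is known in the rat chiefly from the adrenal and pituitary. Its level was -0.25, 0.087 and -0.16 in diabetic kidneys and -0.17, -0.78 and 0.15 in Bailing Capsule kidneys. Bailing Capsule replicate 2 was the lowest of all arrays for Agtr1b and the highest for Agtr1a. Means were -0.11 ± 0.17 and -0.27 ± 0.47 (SD, n = 3 each), a difference of -0.16 (SE 0.29, 95% interval -0.81 to 0.49; limma, adjusted p = 0.976). Without Bailing Capsule replicate 2 the sign turned, to 0.096. Of 11 adrenal markers listed, 5 were tested, with a median of -0.021 and 0 called. The steroid genes Star, Cyp11a1 and Cyp11b2 and the corticotropin receptor gene Mc2r were below the filter. Another steroid gene, Cyp11b1, was well above background on every array. At 1.33 to 1.92 it was the highest of the 5 tested. The summed adrenal level was 2.28 to 2.82 in diabetic and 2.25 to 2.81 in Bailing Capsule kidneys.

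Smooth muscle and mesangial cells carry most AT1 receptors of vessels and glomeruli. Of 10 listed markers 9 were tested, with a median of -0.02 and 0 called. The farthest from 0 were Pdgfra, a fibroblast receptor, at -0.48 and Acta2, smooth muscle actin, at -0.41, the latter fitted without diabetic replicate 2, whose spot was flagged. Their summed level was 2.77 to 3.27 in diabetic and 2.89 to 3.05 in Bailing Capsule kidneys. For the 8 endothelial markers, of which 7 were tested and 0 called, the median was -0.28.

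Agtr2 and Mas1, the receptors of the opposing arm, gave no measurable level. The Agtr2 probe read 1.28, 2.69 and 2.69 intensity units in diabetic and 1.59, 1.44 and 1.09 in Bailing Capsule kidneys. The Mas1 probe read 1.87, 1.22 and 7.41 in diabetic and 1.49, 2.39 and 1.06 in Bailing Capsule kidneys. Every one of these lay under the lowest signal that counted as well above background on the same array, which was 3.82 to 10.2. With both groups at background no fold can be given, and a difference was not detectable with these probes.

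Enpep and Mme stood lowest among the tested members. They act on angiotensin peptides outside the cell, and both are membrane metallopeptidases. Their promoter windows are shown since these are the only members whose groups did not overlap, a state found for 11.6% of all features. The location on GRCr8 is chr2:220526219-220526468, minus strand, for Enpep and chr2:149872247-149872496, plus strand, for Mme, with capitals as above.
Enpep: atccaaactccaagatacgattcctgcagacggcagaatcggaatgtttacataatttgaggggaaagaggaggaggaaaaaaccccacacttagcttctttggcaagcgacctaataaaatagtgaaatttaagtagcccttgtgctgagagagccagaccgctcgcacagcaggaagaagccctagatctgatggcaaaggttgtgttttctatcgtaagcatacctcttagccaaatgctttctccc
Mme: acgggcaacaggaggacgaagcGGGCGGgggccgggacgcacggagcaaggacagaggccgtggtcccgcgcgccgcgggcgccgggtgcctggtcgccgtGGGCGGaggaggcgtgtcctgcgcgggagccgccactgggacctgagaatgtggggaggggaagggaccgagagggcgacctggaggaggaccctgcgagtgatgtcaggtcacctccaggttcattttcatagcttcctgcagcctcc
The Mme window was 70.4% GC and held a GC box at -228 to -223 and another at -149 to -144. The Enpep window was 45.2% GC and matched none of the 3 motifs, so the pair share no motif of those searched. Of the 8 members, 7 had a window in the RefSeq table, and none of these 7 held the cAMP response element TGACGTCA (in 1.59% of all windows) or GTTAAT, the core of a site for HNF1 (6.45%).

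Enpep read 4.52, 4.04 and 4.02 in diabetic replicates 1, 2 and 3, and 3.69 and 3.84 in Bailing Capsule replicates 1 and 2. Its only spot on Bailing Capsule replicate 3 was flagged as non-uniform by the scanner software and was left out, so this fit used 5 arrays. Every diabetic value was above both treated values. Means were 4.19 ± 0.28 (SD, n = 3) and 3.77 ± 0.11 (SD, n = 2), a difference of -0.43 (SE 0.30, 95% interval -1.10 to 0.25; limma, unadjusted p = 0.186, adjusted p = 0.895). With the flagged spot kept, at 3.96, the difference was -0.36. Without diabetic replicate 1 it was -0.26.

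Mme read 4.52, 4.44 and 4.25 in diabetic replicates 1, 2 and 3, and 3.89, 3.59 and 4.23 in Bailing Capsule replicates 1, 2 and 3. Every diabetic array was above every treated array, but diabetic replicate 3 and Bailing Capsule replicate 3 were 0.021 apart. Means were 4.40 ± 0.14 and 3.90 ± 0.32 (SD, n = 3 each), a difference of -0.50 (SE 0.26, 95% interval -1.08 to 0.081; limma, unadjusted p = 0.0840, adjusted p = 0.751). That puts the treated level at 0.706 times the diabetic level, with an interval of 0.472 to 1.06. The value ran from -0.66 without Bailing Capsule replicate 3 to -0.34 without Bailing Capsule replicate 2.

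Non-overlapping groups were found for 11.6% of all features and 2 of the 6 members, and the separation depended on the scaling. Under quantile normalization and in the authors' deposited table both genes overlapped. With median scaling Mme overlapped, and with normexp background correction Enpep did. The differences kept a negative sign in all of these, from -0.19 to -0.44 for Enpep and from -0.33 to -0.47 for Mme.

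**Figure D3:**
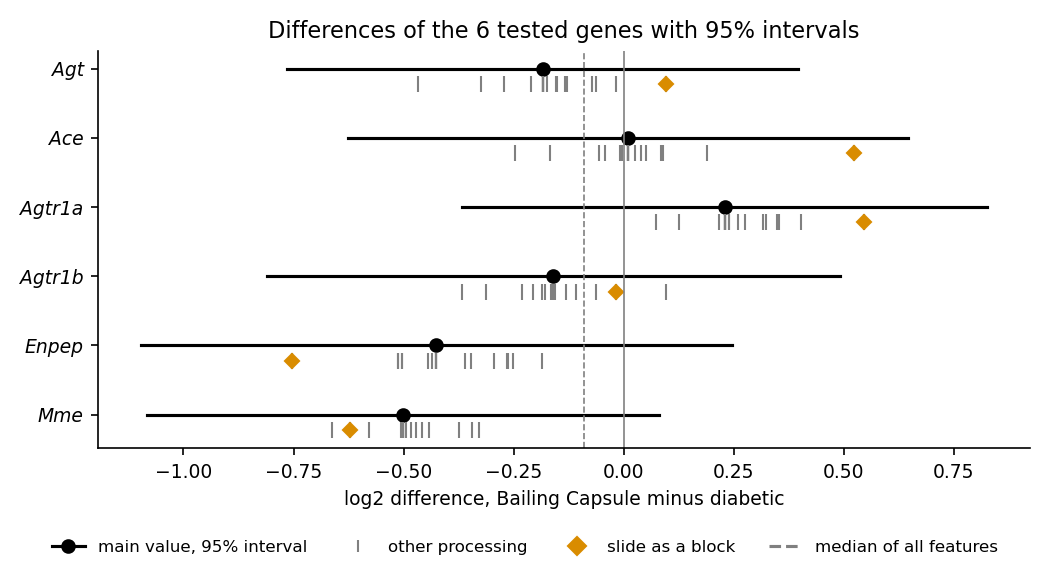
Log2 difference, Bailing Capsule minus diabetic, for the 6 tested genes; black points and lines are values with 95% intervals, grey ticks the values under other processing, orange diamonds the values with slide as a block and the dashed line the median of all features at -0.09. All 6 intervals include 0, and the diamonds lie at 0.52 for Ace, 0.54 for Agtr1a and -0.75 for Enpep.

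Slide and group were partly confounded. Slides were inferred from the scan time in the file headers alone. By scan time, all 3 Bailing Capsule arrays and diabetic replicate 1 shared 1 slide, and diabetic replicates 2 and 3 another. With slide as a block, which rests on that 1 diabetic array, the values were 0.10 for Agt, 0.52 for Ace, 0.54 for Agtr1a and -0.018 for Agtr1b. They were -0.75 for Enpep and -0.62 for Mme, and 0 of the 6 were called. Over all features the block moved the median difference from -0.09 to 0.089.

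The proximal tubule, which bears Enpep, Mme and part of Ace, was checked beside them. All 13 listed markers were tested, 10 of them negative, where 62.1% of all features were negative. The median was -0.18 and 0 were called. The farthest from 0 were Slc5a12 at -1.03 (limma, adjusted p = 0.206) and Slc7a7 at 0.74. Slc5a12 did not overlap, at 2.19 to 2.79 in diabetic and 1.31 to 1.63 in Bailing Capsule kidneys. It was not the only listed marker without overlap, a state found for 11.6% of all features. The array medians of the list overlapped, at -0.25, 0.27 and -0.04 in diabetic and 0.14, -0.39 and -0.33 in Bailing Capsule kidneys. The summed level of the markers was 9.15 to 9.78 and 8.91 to 9.70. The part of tubule content in the values of Enpep and Mme was not tested.

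Other membrane peptidases of kidney had values on both sides of 0. Of 16 listed genes 12 were tested, 7 positive and 5 negative, with a median of 0.11 and 0 called. Their summed level did not overlap, at 7.19 to 7.46 in diabetic and 6.82 to 7.12 in Bailing Capsule kidneys. The brightest genes in that sum were Mep1b and Dpp4. Mep1b, the beta subunit of meprin, another brush border metallopeptidase, had -0.71 (SE 0.26; limma, unadjusted p = 0.0208, adjusted p = 0.484). It read 5.92, 6.09 and 5.84 in diabetic and 5.13, 5.02 and 5.59 in Bailing Capsule kidneys, without overlap. Among all features 11.6% did not overlap. Its partner subunit gene Mep1a had 0.47 and overlapped, with Bailing Capsule replicate 2 highest at 3.42. Dpp4, dipeptidyl peptidase 4, had -0.35, and Naaladl1 had -0.36.

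Among genes of angiotensin cutting and binding outside the 8, none was called. Of 23 listed, 16 were tested, 12 negative and 4 positive, where 62.1% of all features were negative, and the median was -0.23. Ctsd, the aspartic protease cathepsin D, had -0.75 (SE 0.30; limma, unadjusted p = 0.0337, adjusted p = 0.579), with diabetic values of 4.97 to 5.22 and treated values of 3.82 to 4.88. Other enzymes that cut angiotensin peptides at proline or nearby bonds were next by p. Prcp, prolylcarboxypeptidase, had -0.54, Prep, prolyl endopeptidase, -0.65, and Thop1, thimet oligopeptidase, -0.54. The groups of Prcp did not overlap, with values of -2.66 to -2.42 in diabetic and -3.39 to -2.77 in Bailing Capsule kidneys. Groups without overlap were found for 11.6% of all features. The list's median moved with the processing: it was -0.073 after quantile normalization and -0.029 with slide as a block.

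Genes of the renin-secreting cell and its inputs had a median of 0.07 over 12 tested of 20 listed, with 7 positive, 5 negative and 0 called. Casr, the calcium-sensing receptor, which restrains renin release, had 0.66 (SE 0.32; limma, adjusted p = 0.705) and overlapped. The adenylyl cyclase gene Adcy5, which raises cAMP in these cells, had 0.39, the claudin gene Cldn10 0.27 and the beta-1 adrenergic receptor gene Adrb1 -0.19. The aldo-keto reductase gene Akr1b7, a renin cell marker, was below the filter.

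Signalling genes downstream of the AT1 receptor centred on 0. Of 31 listed, 25 were tested, 12 positive and 13 negative, with a median of -0.0048 and 0 called. Plcb4, a phospholipase C beta isoform, had 0.79 (SE 0.32; limma, unadjusted p = 0.0341, adjusted p = 0.581). It read -1.09, -0.32 and 0.15 in diabetic and 0.29, 0.38 and 0.45 in Bailing Capsule kidneys, without overlap. Among all features 11.6% did not overlap. Nox4, the main NADPH oxidase of the tubule, had 0.48 and Cyba, its membrane partner, -0.44. Arrb1, beta-arrestin 1, which uncouples the receptor, had -0.43, also without overlap.

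Genes known to rise with angiotensin II or aldosterone had values on both sides of 0, and none was called. Of 19 listed, 16 were tested, 9 positive and 7 negative, with a median of 0.068. Their summed level did not overlap, at 7.15 to 7.19 in diabetic and 6.80 to 7.02 in Bailing Capsule kidneys. Spp1 was the brightest gene in that sum. Of the 5 pathway lists, only this list and the membrane peptidases had summed levels without overlap. An unadjusted p under 0.05 was found for 4 of the 16, against 7.55% of all features. Ccn2, connective tissue growth factor, was higher on every treated array, at 3.08, 3.45 and 2.17 against 1.82, 1.62 and 1.49, a difference of 1.26 (SE 0.34; limma, adjusted p = 0.247). Spp1, which encodes osteopontin, was lower on every treated array, at 5.28, 4.90 and 5.43 against 6.14, 5.94 and 6.32, a difference of -0.92 (SE 0.26; limma, adjusted p = 0.275). Both have been described as targets of angiotensin II, and here their signs were opposite. Edn1 and Egr1, the rest of the 4, had negative values. The part of angiotensin II in these values was not tested.

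Edn1, the endothelin-1 gene, passed the filter only through the diabetic arrays. On 1 of the 3 treated arrays it was not well above background, so its difference of -0.99 (adjusted p = 0.547 in limma) and its place among the 4 rest partly on a value at background. Egr1, an immediate early transcription factor, had -1.17 (adjusted p = 0.597 in limma), with diabetic replicate 1 at -2.72 among treated values of -2.97 to -2.34. Without diabetic replicate 1, Egr1 was called at -1.83 (limma, adjusted p = 0.0211). That fit leaves each group on a slide of its own, so group and slide cannot be told apart in it, and it calls 195 of all features in place of 57. The plot of the lists shows these values beside the members.

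**Figure D4:**
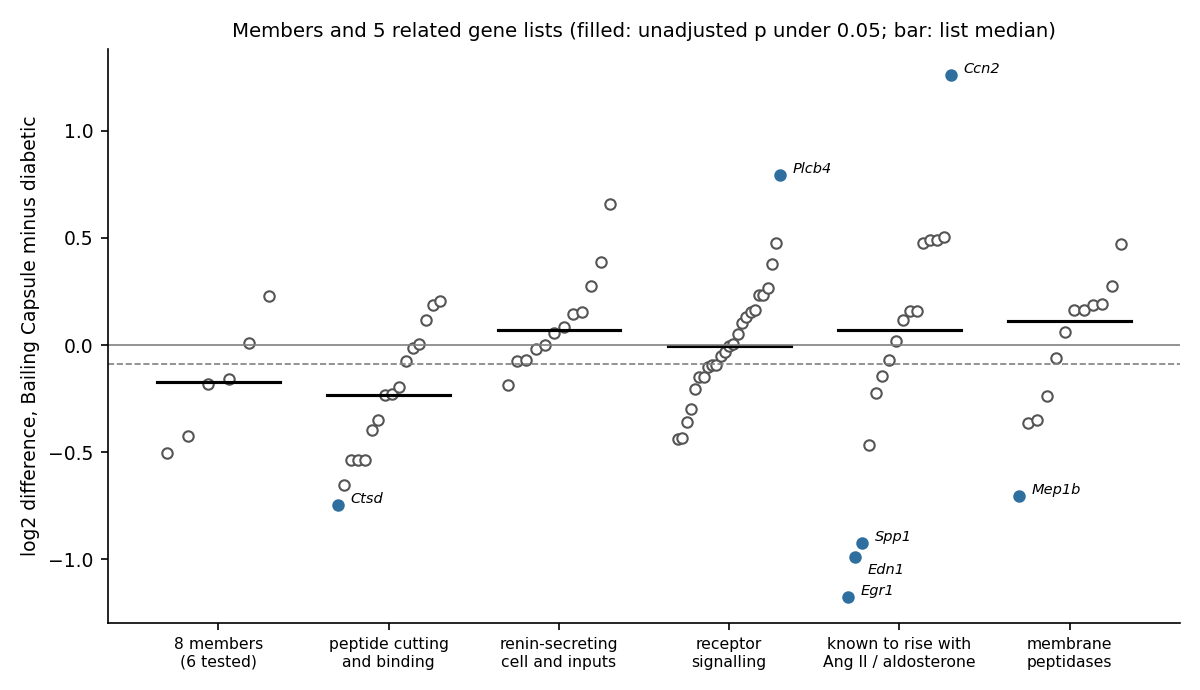
Log2 difference, Bailing Capsule minus diabetic, of the tested members and of 5 related gene lists; each point is a gene, filled points had an unadjusted p under 0.05, bars are list medians and the dashed line is the median of all features. The 6 tested members hold no filled point, and the list medians run from -0.23 to 0.11.

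Over the 6 arrays the members did not follow 1 another closely. Pearson correlations of their log2 levels, given as a description with n = 5 or 6 arrays that share their scaling, ran from -0.79 between Agtr1a and Enpep to 0.77 between Enpep and Mme. Agtr1a and Agtr1b had -0.28, and Agt and Ace 0.55. The gene with the most similar profile was Otud7b for Agt (r = 0.98), Cul9 for Ace (0.99), Vom1r61 for Agtr1a (0.99), Fat3 for Agtr1b (0.99) and Sec24a for Mme (0.99). With 10401 genes compared over 6 arrays such values are common: 8 genes exceeded 0.95 for Agt, 58 for Ace, 46 for Agtr1a, 10 for Agtr1b and 14 for Mme. Enpep lacked 1 array and was not searched.

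The 6 tested genes had a within-group spread near or below that of the typical feature. Their within-group SD was 0.24 to 0.36, beside a median of 0.35 over all features. For a typical feature the 95% interval reached 1.57-fold to either side. That interval is not adjusted for the number of features, so a call needed a larger difference. Spp1, with an SE of 0.26, was 1.89-fold lower in Bailing Capsule kidneys and was not called (limma, adjusted p = 0.275). For a typical feature, differences of 1.57-fold or less were thus not detectable at the threshold used with this number of arrays.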

How the data were processed

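Total RNA from 6 kidney samples was labelled with Cy3, each on an array of its own. Per the file headers, a G2505C scanner and Feature Extraction 11.0.1.1 were used, and the intensity of each spot is background-subtracted and detrended but not scaled across arrays. The authors' deposited table gives log2 intensities whose column medians are all 5.05, and whose columns correlated with their own arrays at 0.983 to 0.994. The sources used here do not state the steps behind it, and it served as an alternative.

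Control spots and 597 to 1091 flagged spots per array were left out. Spots of a probe were averaged on the log2 scale, and each array was set to its 75th percentile. There were no saturated spots, and 65.0% to 73.7% of probes were well above background. A probe was kept where at least 50% of its spots were well above background on all 3 arrays of a group, and a gene was represented by its brightest kept probe. RefSeq accessions were named through a gene table of GRCr8. The array annotation names the build rn4, so promoter coordinates come from the RefSeq table and not from the array. limma 3.58.1 in R 4.3.3 was fitted to all 17892 features, with Benjamini-Hochberg adjustment, and was tested on simulated data. The number of arrays limits the precision.

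The members and lists were chosen with earlier results of these data known. Genes were named by rule: all members, the 4 genes of lowest p in each of the 5 pathway lists, up to 2 genes farthest from 0 in a cell type list, and the most similar profile of each member measured on all arrays. Genes named as below the filter, and the adrenal marker Cyp11b1, were named after their state or values were seen. Deviations of same-numbered samples correlated at -0.181, -0.14 and 0.0194, so the numbers were not taken to pair samples. Arrays were assigned to slides by scan time alone, so slide stands here for a shared scan time. Alternatives covered scaling, background correction, the deposited table, filters, probe choice, slide and replicate blocks, array weights, a variance trend and each array left out.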

Additional observations from a re-analysis of the deposited data

How the results depend on the processing

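Of 125 values of the 6 tested genes under 21 alternatives, 0 were called and 116 kept their sign. The lowest adjusted p was 0.361, with array weights, and 0.462 without them (limma). These alternatives are not all separate checks of the sign. The filters, the probe choice and the variance trend left each value they gave unchanged, so its sign could not turn. Keeping the flagged spot changed only Enpep. The slide block and the fit within slide 1 gave the same 6 values. The sign of Ace, near 0 at 0.01, turned to -0.0045 with quantile normalization, -0.057 with normexp and -0.17 with array weights, and ran from -0.25 to 0.19 with 1 array left out. Agt turned to 0.10 with slide as a block and within slide 1, which rest on the same 1 diabetic array. With 1 array left out Agt ran from -0.32 to -0.017 and Agtr1b from -0.37 to 0.096. The signs of Agtr1a, Enpep and Mme did not turn. Under a replicate block by sample number Enpep had -0.51, the other 5 values did not change, and 0 were called. The number of called features among all was 57, against 14 with normexp, 6 with no filter, 6 with the replicate block, 135 with array weights, 9 within slide 1 and 17 to 195 with 1 array left out. The 195 came without diabetic replicate 1, where group and slide cannot be told apart (the no-filter fit tests more features and some fits hold fewer arrays; otherwise the cause was not tested). The array weights put 1 array far above the rest and are not relied on; with them Ccn2 was called. With all 6 arrays required, Enpep gave no value. Chosen after the data were seen were the fit on slide 1 alone, a random slide effect and keeping the flagged Enpep spot. Scan date as a block is the same as slide by construction, since slides were inferred from it. What depth limits is Agtr2, Mas1 and 1 Ace probe, whose signals lay near background.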
